A study of Mus musculus with 54 samples.

Results

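Cerebellar tumours of SmoA1 mice were compared with normal C57BL/6 cerebellum, called BL6 here, 5 h after 1 Gy of radiation by bulk RNA sequencing. The comparison uses 6 of the 18 libraries of the series, 3 a side, picked by their titles. Each library is the sum of the 4 count files that carry 1 sample number, which makes 24 of 54 files. The titles number these 4 files as biological replicates, but here they count as 1 library. The tumours carry the source label brain tumor and the strain label SmoA1 homo, and the controls the source label cerebellum. To separate tumour differences that persisted from those that appeared, the same comparison was made in sham-treated mice of both kinds, again with 3 libraries a side and tissue taken at 5 h. The irradiated and the sham comparison share no library. All 4 groups share the time point, the total RNA extraction and ribosomal RNA depletion. Age, sex, the promoter of the SmoA1 transgene and whether the numbered samples are separate animals are not given in the labels, so that the tests see only how these samples vary, which may be technical. Tumour and strain change together between the groups and cannot be told apart.

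Smoothened is the membrane protein that switches on hedgehog signalling once Patched no longer holds it back, and Gli transcription factors carry the signal to the genome. In the young cerebellum this pathway drives granule neuron progenitors to divide, and the SmoA1 line, known for an activated Smoothened expressed from the Neurod2 promoter, develops medulloblastoma of this lineage. Ionising radiation breaks DNA, activates p53 and cell cycle checkpoints in dividing cells, and can activate the transcription factor NF-kB, which induces cytokines, adhesion molecules of blood vessels and its own inhibitors.

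The 6 irradiated libraries hold between 540652 and 842997 counts in genes, which is shallow, and the 6 sham libraries lie within the same range. Between 45.8% and 76.1% of reads were unmapped, and 70.4% to 75.0% of uniquely mapped reads lay over no annotated exon. Counts scaled to library size (CPM) per exonic kb had a median of 8.83 to 9.56 over protein-coding genes and a 99.9th percentile of only 35.1 to 41.4, a flat scale. Mitochondrial genes held only 0.00449% to 0.00713% of counts in the BL6 libraries and 0.00884% to 0.0135% in the SmoA1 libraries. How closely such counts follow transcript levels was not tested. Genes on the plus strand had 99.1% to 99.4% of their strand-specific counts in the first strand column and genes on the minus strand 0.444% to 0.627%, so that nearly all counted reads lay in 1 genome orientation and overlapping genes cannot be separated by strand. A set of 4 Y-linked genes summed to 349.8 to 438.8 CPM in BL6 1 Gy libraries 2 and 4, SmoA1 1 Gy library 1 and SmoA1 sham library 2, and to 4.38 to 35.8 CPM in the other 8 libraries. BL6 1 Gy library 4 had low choroid plexus and ependyma transcripts (mean log2(CPM + 1) 4.44, against 5.51 and 5.39 in libraries 2 and 3). SmoA1 1 Gy library 3 had lower granule neuron markers (5.96, against 6.59 and 6.44 in libraries 1 and 2). Granule and Purkinje neuron markers were detected in all BL6 libraries (summed CPM 2011 to 2496 and 1887 to 2264). The granule list also summed to 1520 to 1760 CPM in sham SmoA1 and 1623 to 2271 CPM in irradiated SmoA1. On so flat a scale most genes are detected, so that detection does not check the label cerebellum. In bulk tissue, fewer cells of a type and less RNA per cell cannot be told apart. Library values are given in CPM on 1 scale for all 12 libraries, in the order BL6 libraries 2, 3 and 4 and SmoA1 libraries 1, 2 and 3 after 1 Gy, and log2 differences are SmoA1 against BL6 with their SE. A gene was called at an edgeR adjusted p under 0.05, and each gene described as higher or lower after 1 Gy kept its call whichever of the 6 libraries was left out, unless its exceptions are given.

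Smo (chr6:29735503-29761365, plus strand), the gene of the transgene, was higher in the tumours in both settings. After 1 Gy it had 36.7, 40.7 and 44.1 CPM in BL6 and 81.9, 99.8 and 76.4 CPM in SmoA1, with no overlap and a log2 difference of 1.08 ± 0.20 (edgeR adjusted p = 0.000771). In sham the BL6 libraries had 44.4 to 44.5 CPM and the SmoA1 libraries 86.0 to 99.2 CPM, a log2 difference of 1.06 (edgeR adjusted p = 0.000161). The counts do not separate the transgene from the mouse's own gene. Ptch1, the receptor that inhibits Smoothened and is itself a pathway target, had 209, 207 and 227 CPM in irradiated BL6 and 162, 240 and 215 CPM in irradiated SmoA1, and the difference did not pass (log2 -0.06 ± 0.13, edgeR adjusted p = 0.897). Its direction turned without SmoA1 library 1 (log2 0.09).

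After 1 Gy, 1175 of 16990 tested genes (6.92%) differed between tumour and normal cerebellum, 736 higher (4.33%) and 439 lower (2.58%) in the tumour. In sham, 2705 of 16428 genes (16.5%) differed, 1161 higher (7.07%) and 1544 lower (9.4%). A total of 648 genes were called in the same direction in both. Of these, 340 were higher, which is 46.2% of the genes higher after 1 Gy and 29.3% of those higher in sham, and 2.13% of the 15978 genes tested in both. The other 308 were lower, which is 70.2% of the genes lower after 1 Gy, 19.9% of those lower in sham, and 1.93% of the genes tested in both. The shares of 46.2% and 70.2% cannot be set side by side. Of the genes called after 1 Gy, 191 of the 736 higher and 35 of the 439 lower were not tested in sham and could not be called in both. The genes higher in both had a median log2 difference of 1.72 in sham and 1.55 after 1 Gy, and the genes lower in both -1.87 and -1.22. The median over all tested genes was 0.01 in sham and -0.01 after 1 Gy.

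The difference between the 2 tumour differences was tested as an interaction over the 12 libraries, which called 193 of 18188 genes (1.06%), 181 positive (0.995%) and 12 negative (0.066%). Of the 181 positive genes, 153 had been called lower in the sham tumours, and all 12 negative genes had been called higher there. The genes that passed the test in 1 setting alone were far more numerous. Among them, 396 genes were higher after 1 Gy without being called higher in sham, of which 191 were too low in sham to be tested and 17 also had an interaction call. Another 131 were lower after 1 Gy alone, 1 of them with an interaction call. In the other direction, 820 genes higher in sham and 1234 genes lower in sham were not called after 1 Gy, of which 9 and 126 had an interaction call against that direction. Most of those still tested after 1 Gy kept their sign, 615 of 729 of the higher and 1003 of 1148 of the lower genes.

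**Figure D1:**
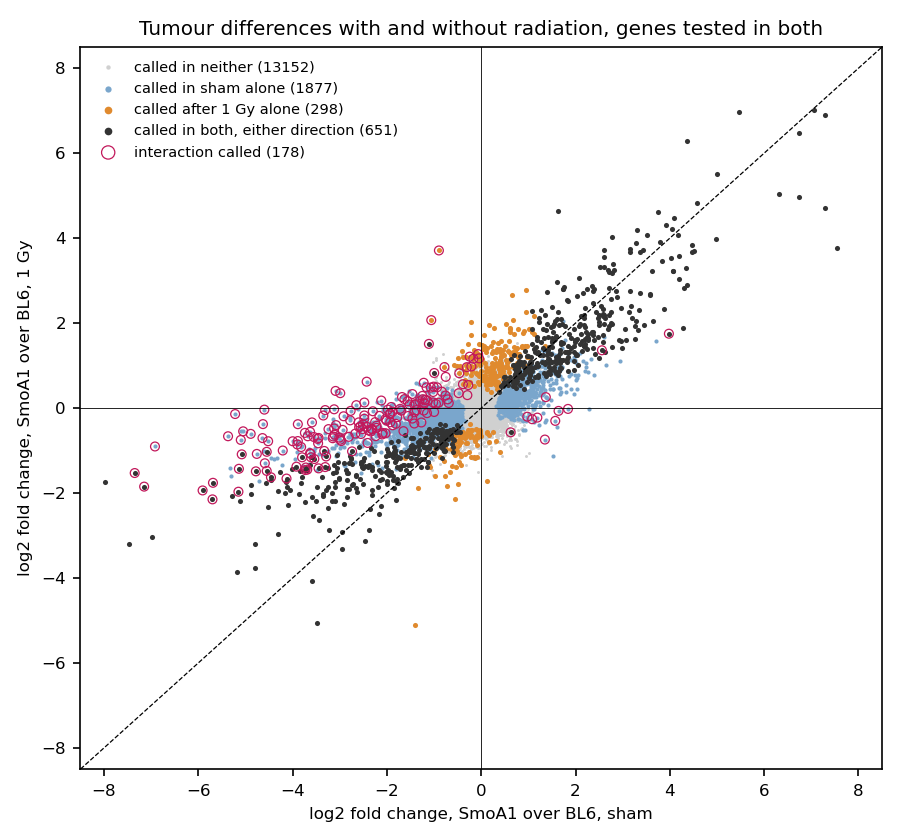
Log2 difference of SmoA1 tumour against BL6 cerebellum in sham (x axis) and after 1 Gy (y axis) for the 15978 genes tested in both, each point a gene, coloured by which of the 2 comparisons called it, with interaction calls ringed. The 648 genes called in the same direction lie in the lower left and upper right, and 178 of the points carry an interaction call.

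The mitotic program of the tumour persisted in irradiated tissue at a smaller size. Of 45 tested genes of a G2/M and mitosis list, 26 were higher after 1 Gy (background 4.33%) and none lower, and 25 of them were also higher in sham, where 41 were called (background 7.07%). The median log2 difference of the list was 0.93 after 1 Gy and 1.46 in sham, and it was smaller after 1 Gy in 43 of the 45 genes. The summed level of the list was 1525 to 1762 CPM in sham BL6, 1818 to 2045 CPM in irradiated BL6, 3430 to 4188 CPM in irradiated SmoA1 and 4259 to 4633 CPM in sham SmoA1, with no overlap between any 2 of the groups. The interaction was called negative for Mki67 and Hmmr alone.

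The 3 list members with the smallest p were Cenpf, a kinetochore protein of late G2 and mitosis, Aspm, which organises spindle poles, and Knl1, the kinetochore scaffold. Their promoter windows each hold the letters TTTGAA, the core of the cell cycle genes homology region (CHR) through which repressor complexes are known to silence late cell cycle genes outside G2 and mitosis. They are shown from 250 bases before to 50 after the RefSeq start on GRCm38.p6, 5′ to 3′ along the gene, with the match in capitals.
Cenpf, chr1:189688037-189688336, minus strand: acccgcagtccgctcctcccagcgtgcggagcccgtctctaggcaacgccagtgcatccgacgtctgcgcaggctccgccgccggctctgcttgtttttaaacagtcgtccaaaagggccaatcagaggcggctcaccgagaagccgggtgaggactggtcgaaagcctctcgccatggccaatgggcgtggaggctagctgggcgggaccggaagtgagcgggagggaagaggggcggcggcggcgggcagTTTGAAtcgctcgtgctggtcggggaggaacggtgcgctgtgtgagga
Aspm, chr1:139454523-139454822, plus strand: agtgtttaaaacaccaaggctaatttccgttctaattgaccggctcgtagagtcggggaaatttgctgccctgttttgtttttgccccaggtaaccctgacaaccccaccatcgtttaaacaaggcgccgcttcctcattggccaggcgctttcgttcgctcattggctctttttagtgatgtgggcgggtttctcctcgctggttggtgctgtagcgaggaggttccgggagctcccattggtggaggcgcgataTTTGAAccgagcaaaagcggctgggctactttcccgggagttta
Knl1, chr2:119046869-119047168, plus strand: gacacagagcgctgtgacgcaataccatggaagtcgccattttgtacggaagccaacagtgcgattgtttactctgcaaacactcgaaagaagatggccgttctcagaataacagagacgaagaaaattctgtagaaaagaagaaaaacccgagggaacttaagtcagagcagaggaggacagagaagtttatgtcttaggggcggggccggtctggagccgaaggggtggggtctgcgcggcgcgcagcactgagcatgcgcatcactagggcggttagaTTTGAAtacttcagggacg
The first base of the match lay at +3 in Cenpf, +7 in Aspm and +32 in Knl1. Of the 25 genes of the list higher in both settings, 23 had a promoter in the RefSeq table. TTTGAA, searched on both strands, was in 16 of the 23 (69.6%), against 20.2% of all 27025 genes with a window and 17.9% of the 32851 windows of 1 length. CCAAT, another element of such promoters, was also in 16 of 23 (69.6%), against 41.1% of all genes. The list was chosen for late cell cycle roles, so that high shares can follow from that choice and give no support. A match of letters is a description of the window and not a bound site.

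Cenpf (chr1:189640606-189688086, minus strand) had 63.4, 42.6 and 30.9 CPM in irradiated BL6 and 163.8, 185.7 and 246.8 CPM in irradiated SmoA1, every tumour library lying above every normal one (log2 2.13 ± 0.20, edgeR adjusted p = 1.45e-07). In sham its log2 difference was 3.19, on 37.0, 15.4 and 16.0 CPM in BL6. Aspm had 41.7, 36.8 and 33.8 CPM in BL6 and 146, 121 and 178 CPM in SmoA1 (log2 1.98 ± 0.20, edgeR adjusted p = 2.47e-07). Knl1 had 31.7, 27.1 and 25 CPM in BL6 and 99.8, 110 and 140 CPM in SmoA1 (log2 2.05 ± 0.21, edgeR adjusted p = 5.89e-07). Top2a, the topoisomerase that untangles replicated chromosomes, and Cdk1, the kinase that drives entry into mitosis, followed with log2 1.61 and 1.78. Mki67, the proliferation antigen, had 90.2, 42.6 and 61.8 CPM in irradiated BL6 and 158, 181 and 166 CPM in irradiated SmoA1, without overlap (log2 1.36 ± 0.18, edgeR adjusted p = 1.25e-05). In sham the same gene had 40.7, 26.1 and 40.8 CPM in BL6 and 206, 179 and 240 CPM in SmoA1, and its interaction was -1.19 on the log2 scale (edgeR adjusted p = 0.0374). That interaction call, and the one for Hmmr, a spindle protein, were not stable to leaving out a library, with an adjusted p of up to 0.199 for Mki67 without BL6 1 Gy library 2 and 0.177 for Hmmr without BL6 1 Gy library 4.

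DNA replication and repair genes persisted in part. Of 43 tested G1/S and replication genes, 8 were higher after 1 Gy (background 4.33%) and none lower. All 8 were also among the 29 higher in sham (background 7.07%). The median log2 difference of the list was 0.3 after 1 Gy and 0.78 in sham. The count of 8 became 5 without BL6 library 3 or without SmoA1 library 3. Clspn, the claspin adaptor of the replication checkpoint, had 31.7, 29.0 and 30.9 CPM in BL6 and 70.0, 112 and 106 CPM in SmoA1 (log2 1.65 ± 0.23, edgeR adjusted p = 1.88e-05), and Dtl, a substrate receptor for replication-linked protein destruction, had a log2 difference of 1.84. The interaction was negative for Mcm2, a subunit of the replicative helicase, and Chaf1a, a histone chaperone, both higher in sham (log2 1.37 and 1.08) and not called after 1 Gy (0.26 and -0.26). Both interaction calls were lost without most single libraries (adjusted p of up to 0.13 and 0.14, without BL6 sham libraries 2 and 1). Of 40 DNA repair genes, 6 were higher after 1 Gy (background 4.33%), all among the 17 higher in sham (background 7.07%). The median log2 difference of that list was only 0.06 after 1 Gy, against 0.44 in sham. Brip1, the helicase partner of BRCA1 (chr11:86058138-86201193, minus strand), differed about as much in both settings. It had 13.4, 17.4 and 8.82 CPM in irradiated BL6 and 99.8, 85.9 and 92.5 CPM in irradiated SmoA1, the groups lying far apart (log2 2.83 ± 0.26, edgeR adjusted p = 1.06e-07). In sham its log2 difference was 2.72. Exo1, the exonuclease that resects DNA ends, had 45.1, 34.9 and 25 CPM against 93.8, 102 and 98.4 CPM (log2 1.5 ± 0.21, edgeR adjusted p = 2.79e-05).

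Some genes of the hedgehog pathway and of granule neuron progenitors were called. Of 26 tested pathway genes, 4 were higher (background 4.33%) and 1 was lower (2.58%) after 1 Gy, against 8 higher (7.07%) and 4 lower (9.4%) in sham. Without SmoA1 library 1, 2 were lower after 1 Gy, and without BL6 sham library 1 or SmoA1 sham library 1, 2 were lower in sham. Gli1, the transcription factor used as the pathway's readout, had 58.4, 44.5 and 51.5 CPM in irradiated BL6 and 47.6, 87.2 and 85.2 CPM in irradiated SmoA1, the groups overlapping through SmoA1 library 1 (log2 0.51 ± 0.22, edgeR adjusted p = 0.211). It was called without that library (log2 0.73, adjusted p = 0.033). It was higher in sham (log2 0.79, edgeR adjusted p = 0.00411), and the interaction did not pass (edgeR adjusted p = 0.835). Ccnd2, the D-type cyclin of dividing progenitors, had 81.8, 94.9 and 104 CPM in BL6 and 159, 169 and 138 CPM in SmoA1 (log2 0.73 ± 0.15, edgeR adjusted p = 0.00199). Ccnd1, another D-type cyclin that is on both the hedgehog and the p53 list, had 41.7, 36.8 and 32.4 CPM against 58.1, 75.8 and 82.3 CPM (log2 0.97 ± 0.22, edgeR adjusted p = 0.00501) and was not called in sham (0.50). Prdm6, a transcriptional regulator, was lower in both settings (log2 -1.61 and -1.87). Of 25 progenitor genes, 4 were higher and 1 was lower after 1 Gy, but 4 of these 5 calls were lost when a library was left out. Sox4, a transcription factor of immature neurons, kept its call on 21.7, 15.5 and 13.2 CPM against 43.2, 50.5 and 38.2 CPM (log2 1.39 ± 0.30, edgeR adjusted p = 0.00292). Atoh1, which specifies granule neuron progenitors, passed narrowly (log2 1.33 ± 0.40, edgeR adjusted p = 0.0434). Its adjusted p was 0.119, 0.158, 0.0506, 0.141 and 0.184 without BL6 libraries 2, 3 and 4 and SmoA1 libraries 1 and 3.

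Among single genes, the largest differences that persisted were transcripts near absent from normal cerebellum. Isl1, a homeodomain transcription factor of motor and sensory neurons (chr13:116298281-116309689, minus strand), had 1.67, 0 and 0 CPM in irradiated BL6 and 62.5, 51.8 and 60.2 CPM in irradiated SmoA1, a ratio of 104 with a 95% counting interval of 18.3 to 4134. In sham it had 0, 6.14 and 0 CPM in BL6 and 40.04, 58.5 and 52.4 CPM in SmoA1. Edaradd, the adaptor of the ectodysplasin receptor, had 3.34, 1.94 and 2.94 CPM against 92.3, 72.0 and 91.1 CPM (log2 4.83 ± 0.36, edgeR adjusted p = 7.64e-09). Tmprss13, a membrane serine protease, had no count in any of the 6 BL6 libraries and 28.3, 22.7 and 22.0 CPM in the irradiated tumours, at least 14.5-fold higher against a floor of 3 counts over the group, and at least 14.6-fold higher in sham. The largest persisting deficits included Kcnv2, a silent subunit of potassium channels, with 70.1, 42.6 and 42.6 CPM in irradiated BL6 and 7.45, 10.1 and 1.47 CPM in irradiated SmoA1 (log2 -2.96 ± 0.40, edgeR adjusted p = 1.53e-05). Spo11, known for making the DNA breaks of meiosis, and Nphs1, the nephrin of the kidney filter, also remained lower (log2 -2.87 and -2.64 after 1 Gy, -2.37 and -3.44 in sham). Such genes are at low counts, and intervals and floors cover counting error only.

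Many inflammatory transcripts were higher in the irradiated tumours. Of 42 cytokine, chemokine and leukocyte adhesion genes, 27 were tested in both settings. Of these 27, 13 were higher after 1 Gy (background 4.33%) and none lower, while in sham 2 were higher (background 7.07%) and 1 lower. Their median log2 difference was 0.64 after 1 Gy and 0.09 in sham. After 1 Gy 38 were tested and 20 were higher, but those tested after 1 Gy alone, such as Sele, could pass the low-count filter through the very tumours in which they were high, so that this larger count gives no support. The summed level was 1078 to 1230 CPM in irradiated BL6, 1101 to 1155 CPM in sham BL6 and 1088 to 1419 CPM in sham SmoA1, and 1852 to 2073 CPM in irradiated SmoA1, which lay above all the other libraries. Of 25 genes of NF-kB subunits and feedback inhibitors, 24 were tested in both settings. Of these 24, 3 were higher after 1 Gy (background 4.33%) and none lower, while in sham none was higher and 2 were lower (background 9.4%). The larger count of 4 higher after 1 Gy included a gene tested in that setting alone, which could likewise pass the filter through those tumours. The interaction was called by edgeR for Steap4 in the first list and Birc3 in the second, and by DESeq2 for 0 genes of either list. The Steap4 call was lost in most fits without 1 library (adjusted p of up to 0.113 without BL6 1 Gy library 4). A difference between the settings was thus not shown for the other members one by one. With the Y-linked level as a covariate the count of 20 was 18, and with DESeq2 it was 15.

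Promoters are shown for 4 genes of these 2 lists called higher after 1 Gy. They were picked for holding the letters of the NF-kB consensus site, as those with the smallest p among such genes. Il1rn and Selp, each with a smaller p than Il6, held no match. Tnip3 binds the inhibitor A20 and restrains NF-kB signalling, Il6 and Tgfb1 are secreted cytokines, and Cxcl2 is a chemokine that attracts neutrophils. Capitals mark the match in the window from 250 bases before to 50 after the RefSeq start on GRCm38.p6, 5′ to 3′ along the gene.
Tnip3, chr6:65590148-65590447, plus strand: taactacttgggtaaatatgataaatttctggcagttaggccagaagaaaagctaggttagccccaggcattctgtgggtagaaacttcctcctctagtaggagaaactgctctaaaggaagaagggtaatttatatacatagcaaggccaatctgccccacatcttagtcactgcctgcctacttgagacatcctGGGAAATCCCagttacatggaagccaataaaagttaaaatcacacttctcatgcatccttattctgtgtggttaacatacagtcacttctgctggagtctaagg
Il6, chr5:30012864-30013163, plus strand: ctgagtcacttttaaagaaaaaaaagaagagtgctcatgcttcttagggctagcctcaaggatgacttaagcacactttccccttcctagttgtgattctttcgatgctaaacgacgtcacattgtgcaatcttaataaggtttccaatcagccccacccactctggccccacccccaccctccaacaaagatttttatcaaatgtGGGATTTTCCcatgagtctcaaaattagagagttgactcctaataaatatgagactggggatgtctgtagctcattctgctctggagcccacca
Tgfb1, chr7:25686752-25687051, plus strand: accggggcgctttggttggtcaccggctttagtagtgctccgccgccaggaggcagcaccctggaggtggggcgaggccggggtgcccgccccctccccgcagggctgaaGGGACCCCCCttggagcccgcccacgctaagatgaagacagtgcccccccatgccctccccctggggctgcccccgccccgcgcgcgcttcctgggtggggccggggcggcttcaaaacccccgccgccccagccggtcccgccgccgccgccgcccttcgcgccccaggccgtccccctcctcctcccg
Cxcl2, chr5:90903649-90903948, plus strand: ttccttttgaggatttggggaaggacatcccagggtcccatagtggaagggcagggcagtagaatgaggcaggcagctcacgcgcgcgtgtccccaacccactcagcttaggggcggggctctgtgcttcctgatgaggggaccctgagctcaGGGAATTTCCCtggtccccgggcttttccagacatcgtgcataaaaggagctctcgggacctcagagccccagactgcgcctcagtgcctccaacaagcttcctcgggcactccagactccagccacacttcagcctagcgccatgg
The first base of the match lay at -54 in Tnip3, -44 in Il6, -140 in Tgfb1 and -97 in Cxcl2, and in Tnip3 and Tgfb1 the same letters match on both strands, while in Cxcl2 an overlapping match on the opposite strand begins at -96. Of the 24 genes of the 2 lists higher after 1 Gy, 21 had a window, and 11 of these (52.4%) held the consensus on either strand, against 9.55% of all genes and 8.46% of all windows. The AP-1 letters TGANTCA were in 9 of the 21 (42.9%), against 8.97% of all genes. The 2 lists hold kinds of genes known to be induced by NF-kB, so that a high share can follow from the choice of lists and gives no support. The share among their uncalled members was not determined. Of the 6 immediate early genes higher after 1 Gy, 5 held the NF-kB consensus (83.3%, against 9.55% of all genes) and 0 the AP-1 letters. By window it was 5 of 10 (50%, against 8.46% of all windows), 5 of the 10 windows being those of Egr2. These shares describe the windows and say nothing of binding.

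Tnip3 (chr6:65525313-65634040, plus strand) had 0, 0 and 1.47 CPM in irradiated BL6 and 73.0, 61.9 and 42.6 CPM in irradiated SmoA1, a ratio of 106 with a counting interval that starts at 18.8. In sham it had 3.70, 0 and 1.77 CPM in BL6 and 4.45, 5.09 and 1.34 CPM in SmoA1, but the interaction did not pass (edgeR adjusted p = 0.112). Il6 (chr5:30013114-30019981, plus strand) had 0, 3.87 and 2.94 CPM in irradiated BL6 and 35.7, 30.3 and 27.9 CPM in irradiated SmoA1 (log2 3.70 ± 0.55, edgeR adjusted p = 5.23e-05), while its sham tumours had 1.48, 19.1 and 2.68 CPM. Sele, the E-selectin with which activated endothelium catches leukocytes, had no count in irradiated BL6 and 35.7, 42.9 and 36.7 CPM in irradiated SmoA1, at least 23.2-fold higher. Its partner Selp, the P-selectin of endothelium and platelets, had 11.7, 3.87 and 1.47 CPM against 47.6, 48.0 and 39.7 CPM (log2 2.97 ± 0.42, edgeR adjusted p = 2.73e-05). Tgfb1 had 33.4, 19.4 and 33.8 CPM in BL6 and 68.5, 80.8 and 85.2 CPM in SmoA1, without overlap (log2 1.4 ± 0.23, edgeR adjusted p = 0.000162). Vcam1 and Icam1, the endothelial ligands of leukocyte integrins, were higher by 0.79 and 1.01 on the log2 scale. Of 22 tested endothelial markers none was called after 1 Gy by edgeR or DESeq2 (2 and 0 at an unadjusted p under 0.05), and their summed level was 1228 to 1329 CPM in BL6 and 1303 to 1423 CPM in SmoA1.

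Some cytokines were already raised in the sham tumours. Il1rn, the natural antagonist of the interleukin 1 receptor, had 22.2, 22.9 and 28.2 CPM in sham SmoA1, and 61.1, 65.7 and 57.3 CPM in irradiated SmoA1 against 3.34, 5.81 and 10.3 CPM in irradiated BL6 (log2 3.17 ± 0.34, edgeR adjusted p = 6.64e-07). Cxcl10, a chemokine induced by interferon, was higher in both settings by 1.53 and 1.74 on the log2 scale, the sham call being lost without SmoA1 sham library 2 (adjusted p = 0.0513). Tnf, the tumour necrosis factor, had 16.4, 16.4 and 22.0 CPM in irradiated SmoA1 and 16.3, 14.0 and 14.8 CPM in sham SmoA1, against 5.01, 1.94 and 0 CPM in irradiated BL6 and no count in sham BL6. It was higher after 1 Gy (log2 2.92 ± 0.66, edgeR adjusted p = 0.00476) and too low to be tested in sham, where its tumour libraries lay near the irradiated ones. Birc3, an inhibitor of apoptosis that NF-kB induces, had 36.7, 27.1 and 38.2 CPM in irradiated BL6 and 89.4, 72.0 and 72.0 CPM in irradiated SmoA1 (log2 1.16 ± 0.22, edgeR adjusted p = 0.000727), with 37.3 to 55.5 CPM in the 6 sham libraries. Its interaction was 1.34 (edgeR adjusted p = 0.026), a call lost without any 1 of 7 libraries (adjusted p of 0.0519 to 0.137).

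Some neutrophil markers were called beside the cytokines. Of 16 markers only 7 were tested after 1 Gy, and 3 of these, among them Cxcr2 and Mmp8, were higher in the irradiated tumours. Only 4 were tested in both settings, 1 of them higher after 1 Gy (background 4.33%). Those tested after 1 Gy alone could pass the low-count filter through the tumours in which they were high. The count of 3 therefore gives no support. Cxcr2, the receptor for Cxcl1 and Cxcl2, had 3.34, 7.74 and 0 CPM in irradiated BL6 and 44.7, 49.3 and 39.7 CPM in irradiated SmoA1 (log2 3.66 ± 0.48, edgeR adjusted p = 1.06e-05), with 11.9, 26.7 and 10.7 CPM in the sham tumours. The summed level of all 16 markers was 172 to 271 CPM in irradiated BL6, 352.5 to 443.3 CPM in irradiated SmoA1, 220 to 259 CPM in sham BL6 and 215 to 251 CPM in sham SmoA1. The granule genes S100a8, S100a9, Ly6g, Ngp, Camp, Ltf, Elane, Mpo and Retnlg were too low to be tested. S100a8, for example, had 5.01, 11.6 and 7.35 CPM in irradiated BL6 and 11.9, 15.2 and 19.1 CPM in irradiated SmoA1, and Ly6g, a surface protein specific to neutrophils, 1.67, 1.94 and 5.88 CPM against 7.45, 3.79 and 0 CPM. The part of these cells in the cytokine result was not tested.

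**Figure D2:**
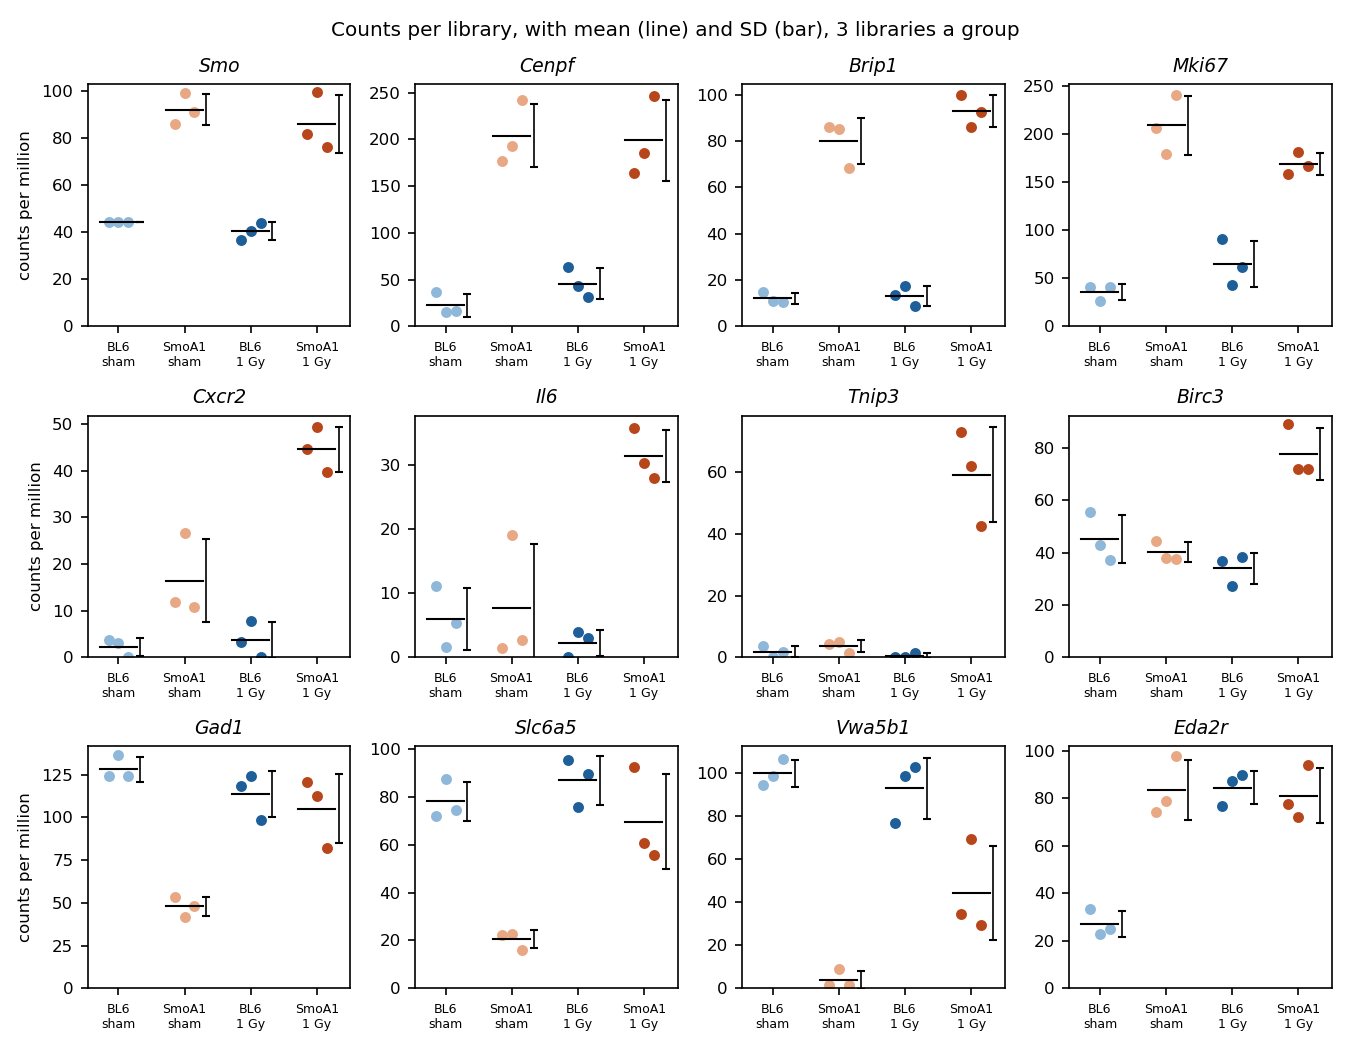
CPM of 12 genes in each library of the 4 groups, 1 point per library, with a line at the group mean and a bar of 1 SD. Cenpf, Brip1 and Smo are high in both tumour groups, Cxcr2, Il6, Tnip3 and Birc3 in the irradiated tumours, whereas Gad1, Slc6a5 and Vwa5b1 are low in the sham tumours.

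Interferon-response genes gave 6 calls of 43 tested genes after 1 Gy, all higher (background 4.33%), against 2 of 40 higher in sham (background 7.07%). Of the 40 tested in both, 5 were higher after 1 Gy. Oas3, a sensor of double-stranded RNA, had 6.68, 3.87 and 10.3 CPM in irradiated BL6 and 76.0, 48.0 and 47.0 CPM in irradiated SmoA1 (log2 2.94 ± 0.36, edgeR adjusted p = 4.94e-06). Mx1, an antiviral GTPase, and Zbp1, a sensor of nucleic acids in Z form, were higher by 1.28 and 1.36 on the log2 scale, with no call in sham (-0.15 and -0.16). The interaction was called for none of the 45 genes of this list that it tested, by edgeR or DESeq2, and at an unadjusted p under 0.05 it was positive in 13 by edgeR and 10 by DESeq2 and negative in none.

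Immediate early genes, which neurons and other cells switch on within minutes of a stimulus, had 6 calls of 40 after 1 Gy, all higher (background 4.33%). In sham 2 were higher (background 7.07%) and 2 lower (9.4%). The count after 1 Gy was 3 without BL6 library 4 or SmoA1 library 2. Fosl2, a partner in AP-1, had 68.5, 81.3 and 61.8 CPM in BL6 and 140, 148 and 145 CPM in SmoA1, the groups well apart (log2 1.05 ± 0.16, edgeR adjusted p = 6.11e-05). Egr2, a zinc finger factor, was higher in both settings by 1.95 and 2.19. The interaction was positive in 4 genes of the list, Fos, Fosb, Nr4a3 and Bdnf, each lost without some libraries (adjusted p of up to 0.0959, 0.182, 0.134 and 0.134). Fosb was called lower in sham (log2 -1.0, edgeR adjusted p = 0.0335) and higher after 1 Gy (log2 0.82, edgeR adjusted p = 0.0289). The call after 1 Gy was lost without BL6 libraries 3 or 4 or SmoA1 libraries 1 or 2, with adjusted p of 0.0538, 0.202, 0.0594 and 0.171. The sham call was lost without BL6 sham libraries 1 or 3 or SmoA1 sham libraries 1 or 4, with adjusted p of 0.0745, 0.305, 0.074 and 0.133.

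Adhesion and migration genes gave 10 calls of 37 after 1 Gy, all higher (background 4.33%) and 5 of them also higher in sham. In sham 9 were higher (background 7.07%) and 2 lower (9.4%). Without BL6 library 4, SmoA1 library 2 or SmoA1 library 3 the count after 1 Gy was 6, 4 and 5, and with DESeq2 it was 5. The sham count of 9 fell to 4 without BL6 sham library 3 and to 5 with DESeq2. Cd44, the hyaluronan receptor, had 43.4, 48.4 and 50 CPM in irradiated BL6 and 112, 109 and 99.9 CPM in irradiated SmoA1 (log2 1.17 ± 0.18, edgeR adjusted p = 9.36e-05), with 61.0, 53.8 and 67.4 CPM in sham BL6 and 57.8, 78.8 and 37.6 CPM in sham SmoA1. Its interaction of 1.22 (edgeR adjusted p = 0.0379) was lost without any 1 of 10 libraries (up to 0.131). Itgav, an integrin chain, persisted with 0.70 after 1 Gy and 0.74 in sham on the log2 scale, and Met, the receptor of hepatocyte growth factor, was called after 1 Gy (1.32) and not in sham (0.58). Cdh1, the epithelial cadherin, had an interaction of 1.79 ± 0.33 (edgeR adjusted p = 0.00394) from 19.3, 19.1 and 18.8 CPM in the sham tumours and 68.5, 48.0 and 48.5 CPM in the irradiated tumours, against 42.6 to 58.4 CPM in both BL6 groups.

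**Figure D3:**
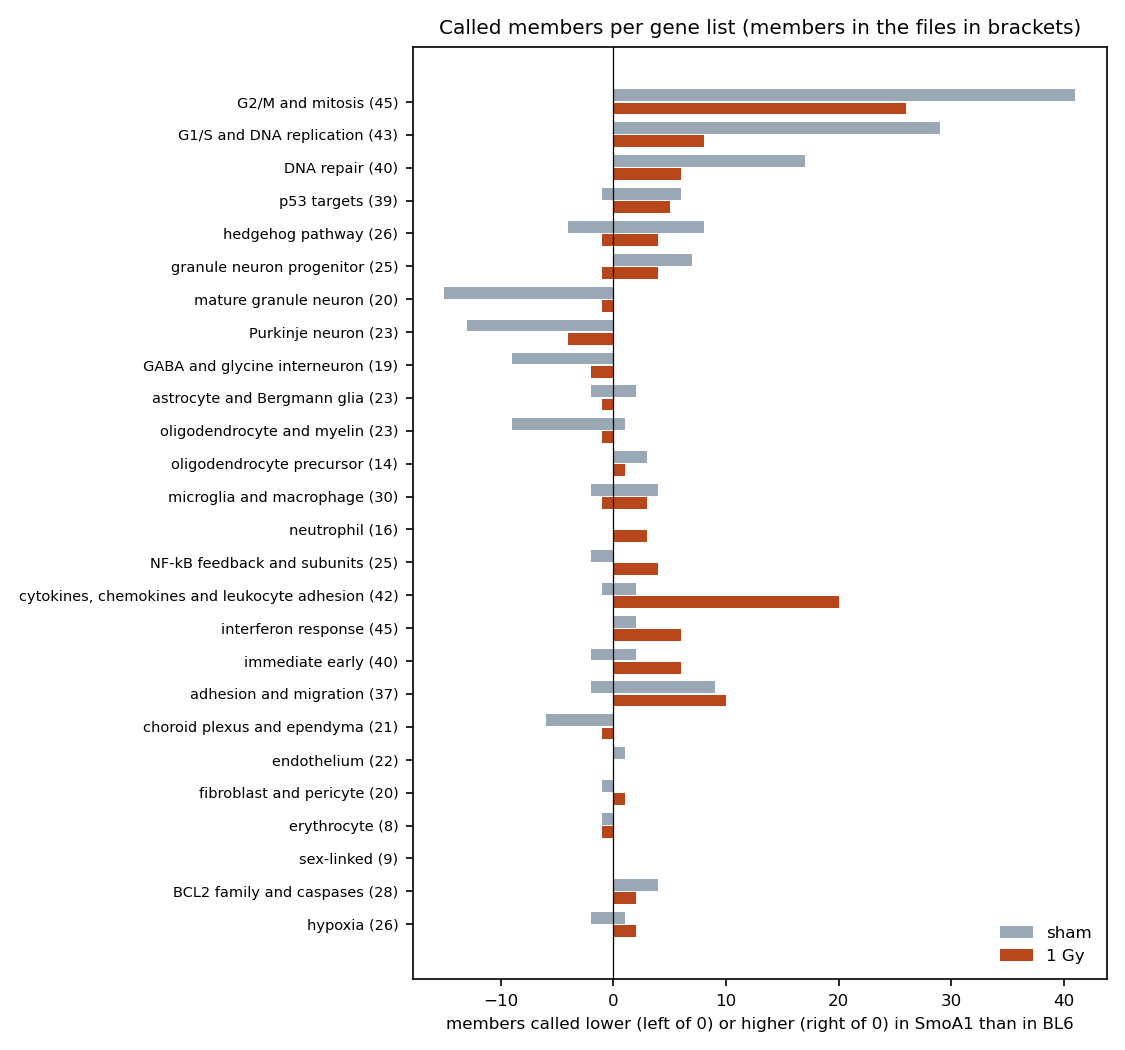
Number of members of each gene list called higher or lower in SmoA1 than in BL6, after 1 Gy and in sham. Lists differ in size, and the members found in the data are given in brackets. Mitotic genes are called in both settings (26 of 45 and 41 of 45), cytokine genes mostly after 1 Gy (20 of 38, and 13 of the 27 tested in both), and neuronal lists mostly in sham. Over all tested genes 4.33% were higher and 2.58% lower after 1 Gy, and 7.07% higher and 9.4% lower in sham. Members tested after 1 Gy alone could pass the low-count filter through the irradiated tumours, so that the count of 20 gives no support.

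Most neuronal markers that were lower in the sham tumours were not called after 1 Gy. Of 19 mature granule neuron markers 15 were lower in sham (background 9.4%) and 1 after 1 Gy (background 2.58%), and the median log2 difference was -0.69 and -0.14. The sham count was 7 without BL6 sham library 2, 8 without BL6 sham library 3, 9 without SmoA1 sham library 2 and 9 with DESeq2. For 21 Purkinje neuron markers, 4 were lower after 1 Gy against 13 of 20 in sham, and for 18 markers of GABA and glycine interneurons 2 against 9. The summed level of the granule neuron list was 2107 to 2128 CPM in irradiated BL6 and 2084 and 2271 CPM in 2 of the irradiated tumours, whereas SmoA1 library 3 had 1623 CPM, within the 1520 to 1760 CPM of the sham tumours. Leaving out a library moved the counts after 1 Gy to 0 to 1, 2 to 4 and 0 to 2. The granule and interneuron counts were 0 without BL6 library 4 or without SmoA1 library 3. The Purkinje count was 2 without BL6 library 3, without BL6 library 4 and without SmoA1 library 2. The interaction was called by edgeR for 1, 0 and 2 genes of the 3 lists, positive in each. At an unadjusted p under 0.05 it was positive in 10 Purkinje genes by edgeR and 6 by DESeq2, none of which DESeq2 called, and negative in none.

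Gad1, the enzyme that makes GABA (chr2:70553072-70602014, plus strand), had 53.4, 42.0 and 48.3 CPM in sham SmoA1 against 124, 137 and 124 CPM in sham BL6. After 1 Gy it had 121, 112 and 82.3 CPM in SmoA1 against 118.5, 124 and 98.5 CPM in BL6, with overlap, and the interaction was 1.33 ± 0.24 (edgeR adjusted p = 0.00341). Slc6a5, the glycine transporter of inhibitory neurons, had 22.2, 22.9 and 16.1 CPM in sham SmoA1 and 92.3, 60.6 and 55.8 CPM after 1 Gy, against 72.1 to 95.2 CPM in both BL6 groups (interaction 1.60 ± 0.32, edgeR adjusted p = 0.00744). Hapln1, a link protein of the extracellular matrix around neurons, had 8.90, 12.7 and 6.71 CPM in sham SmoA1 and 52.1, 51.8 and 30.9 CPM after 1 Gy (interaction 2.50). These calls held in all 12 fits that left out a library. Cacna1g, a T-type calcium channel of Purkinje neurons, was lower after 1 Gy by 0.65 (log2 -0.65 ± 0.14, edgeR adjusted p = 0.00226) with no call in sham (-0.33). Gad2, the other GABA-producing enzyme, differed from Gad1 in remaining lower (log2 -0.63 after 1 Gy and -0.66 in sham), a call lost without BL6 library 2 or 4 or SmoA1 library 3 (adjusted p of 0.0569, 0.119 and 0.151).

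**Figure D4:**
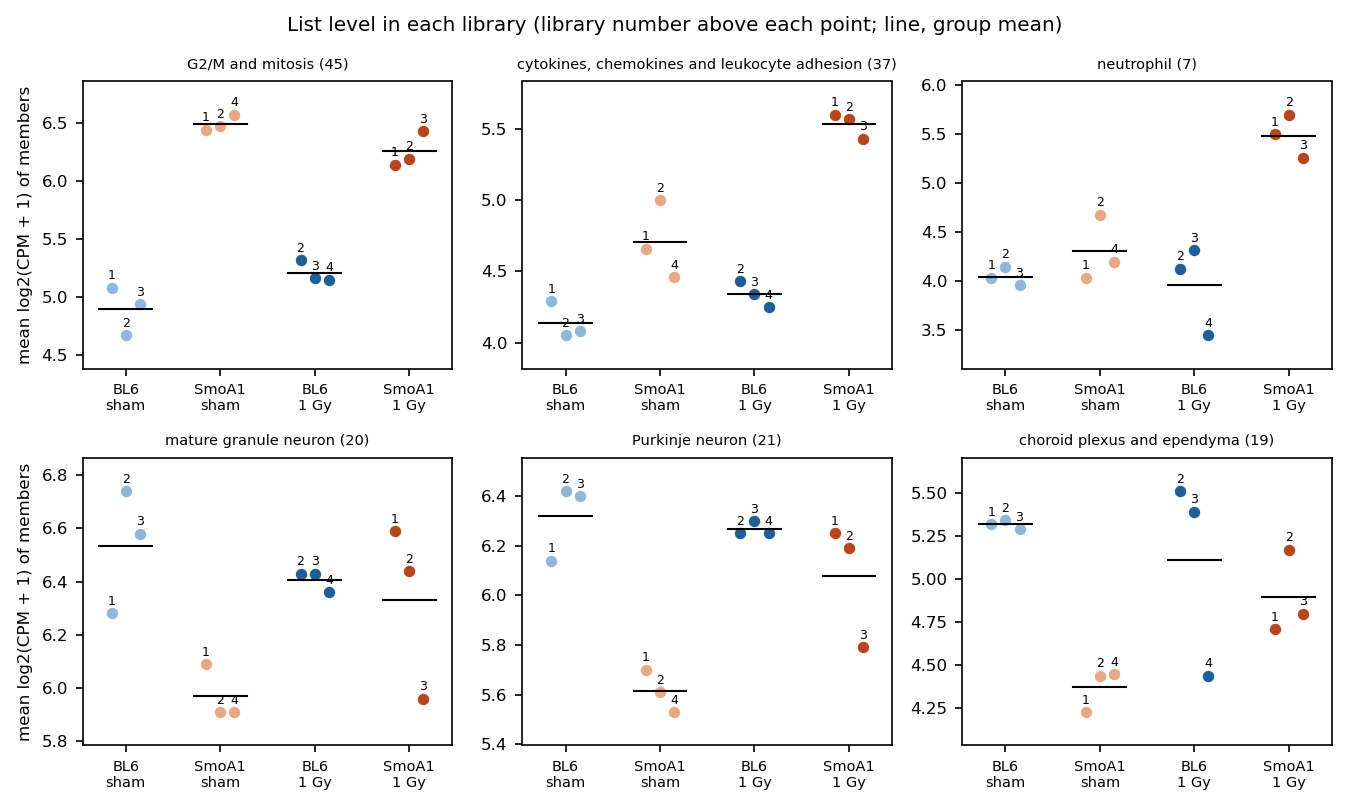
Mean log2(CPM + 1) of the tested members of 6 gene lists in each library of the 4 groups, 1 point per library. The irradiated tumours lie above the other groups in the cytokine and neutrophil lists. Members high in the irradiated tumours alone could pass the low-count filter, so that this height gives no support. SmoA1 1 Gy library 3 lies lowest of its group in the granule neuron list (5.96), and BL6 1 Gy library 4 lies lowest of its group in the choroid plexus and ependyma list (4.44).

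Other genes low in the sham tumours stood near or closer to the normal level after 1 Gy. Vwa5b1 (chr4:138565360-138635884, minus strand), a protein with a von Willebrand factor domain, had 1.48, 8.90 and 1.34 CPM in sham SmoA1 and 34.2, 69.5 and 29.4 CPM in irradiated SmoA1, against 76.8 to 106.5 CPM in BL6 (interaction 3.52 ± 0.51, edgeR adjusted p = 0.000909). It remained lower after 1 Gy (log2 -1.03), a call lost without SmoA1 library 3 (adjusted p = 0.0692). Fgf10, a fibroblast growth factor, likewise had 1.48, 1.27 and 0 CPM in sham SmoA1 and 25.3, 17.7 and 13.2 CPM in irradiated SmoA1, against 52.2 to 65.1 CPM in BL6, and remained lower after 1 Gy (log2 -1.76 ± 0.26, edgeR adjusted p = 4.99e-05). The predicted gene Gm3294 had the smallest interaction p, with 10.4, 10.2 and 9.40 CPM in sham SmoA1 and 90.8, 87.2 and 52.9 CPM after 1 Gy, against 75.1 to 109 CPM in BL6. Choroid plexus and ependyma genes had 6 of 17 lower in sham (background 9.4%) and 1 lower after 1 Gy (background 2.58%), but BL6 1 Gy library 4 was itself low there. The one gene, Dnah9, an axonemal dynein of motile cilia, had 120, 101 and 19.1 CPM in irradiated BL6 and 17.9, 49.3 and 11.8 CPM in irradiated SmoA1. Its call (log2 -1.50 ± 0.43, edgeR adjusted p = 0.0305) was lost without BL6 library 2 or 3 or SmoA1 library 1 or 3 (adjusted p of 0.269, 0.201, 0.118 and 0.22). Without BL6 library 4, 2 genes of that list were lower, and without SmoA1 library 2, 3 genes. Prlr, the prolactin receptor of the choroid plexus, had 169, 130 and 26.5 CPM in irradiated BL6 and 20.9, 84.6 and 17.6 CPM in irradiated SmoA1, and its interaction of 3.3 was lost without any 1 of 8 libraries, most of all SmoA1 1 Gy library 2 (adjusted p = 0.354).

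For a few genes higher in the sham tumours, no difference was called after 1 Gy and normal cerebellum had a higher level than in sham. Eda2r (chrX:97333840-97377216, minus strand), a receptor of the tumour necrosis factor family induced by p53, had 33.3, 23.0 and 24.8 CPM in sham BL6 and 76.8, 87.1 and 89.7 CPM in irradiated BL6. The tumours had 74.1, 78.8 and 98.0 CPM in sham and 77.4, 72.0 and 94.0 CPM after 1 Gy. Its log2 difference was 1.64 in sham and -0.07 after 1 Gy, an interaction of -1.70 ± 0.28 (edgeR adjusted p = 0.00265). Of 38 p53 targets tested, 5 were higher (background 4.33%) and none lower after 1 Gy, and 6 were higher (7.07%) and 1 lower (9.4%) in sham. Of the genes higher in either setting 3 were called in both, and Eda2r was the only gene of the list with an interaction call. Without BL6 library 4, SmoA1 library 2 or SmoA1 library 3, and with DESeq2, 3 were higher after 1 Gy, and without BL6 sham library 1 or SmoA1 sham library 2 none was lower in sham. Ptprv, a receptor phosphatase on that list, had 33.4, 15.5 and 14.7 CPM in BL6 and 50.6, 66.9 and 80.8 CPM in SmoA1 after 1 Gy (log2 1.63 ± 0.29, edgeR adjusted p = 0.000369). Cdkn1a, the p53-induced inhibitor of cyclin-dependent kinases, chosen after its values were seen, had a similar course, with a log2 difference of 0.99 in sham (edgeR adjusted p = 0.00333) and 0.05 after 1 Gy (edgeR adjusted p = 0.947), but its interaction did not pass (edgeR adjusted p = 0.189). Prr12, a proline-rich nuclear protein, turned from higher in sham (log2 0.62) to lower after 1 Gy (-0.57), with an interaction of -1.19 ± 0.22 (edgeR adjusted p = 0.00446). Its call after 1 Gy was lost without BL6 library 4 or SmoA1 library 2 (adjusted p of 0.0971 and 0.117), and its sham call without BL6 sham library 3 (0.0505).

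Among the largest differences called after 1 Gy alone, some rested on a low level in sham and not on its absence there. Slc26a9, a chloride transporter (at least 17.3-fold higher), had 26.7, 10.2 and 12.1 CPM in the sham tumours against 23.8, 35.4 and 26.4 CPM after 1 Gy, and Mmp27, a matrix metalloproteinase (at least 14.0-fold higher), 11.9, 14.0 and 18.8 CPM against 19.4, 27.8 and 22.0 CPM. Both were too low to be tested in sham, and neither had an interaction call (edgeR adjusted p = 0.285 and 0.686). Igf2bp2, an RNA-binding protein of growing cells, did pass it. It had 25.04, 7.74 and 4.41 CPM in irradiated BL6 and 53.6, 46.7 and 57.3 CPM in irradiated SmoA1, against 16.6 to 21.3 CPM in sham BL6 and 5.37 to 11.4 CPM in sham SmoA1 (interaction 3.14 ± 0.60, edgeR adjusted p = 0.00575). On the lower side, Impg1, a proteoglycan known from the retina, had 45.1, 40.7 and 19.1 CPM in irradiated BL6 and 1.49, 2.53 and 0 CPM in irradiated SmoA1.

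The remaining lists gave few calls after 1 Gy. The background for them was 4.33% higher and 2.58% lower after 1 Gy, and 7.07% higher and 9.4% lower in sham. Of 30 microglia and macrophage genes 3 were higher, 1 of them stable, Ms4a7, a macrophage membrane protein (log2 1.85 ± 0.31, edgeR adjusted p = 0.000236, and 1.96 in sham), and 1 lower. Their summed level was 834 to 1003 CPM in BL6 and 1166 to 1172 CPM in SmoA1. Without SmoA1 library 2, and also without SmoA1 library 3, 1 of them was higher. Of 14 oligodendrocyte precursor genes, Pdgfra, the growth factor receptor that marks these cells, had 85.2, 85.2 and 97.0 CPM in BL6 and 150, 160 and 147 CPM in SmoA1 (log2 0.77 ± 0.14, edgeR adjusted p = 0.000819), and was higher in sham as well (1.03). Of 23 oligodendrocyte and myelin genes, 1 was lower after 1 Gy, Tspan2, a tetraspanin of myelin (log2 -0.83), and 9 of 22 in sham. Without SmoA1 library 2, 4 were lower after 1 Gy, and without BL6 sham library 2, 5 were lower in sham. Of 23 astrocyte and Bergmann glia genes, 1 was lower, Gdf10, a growth factor of Bergmann glia (log2 -1.18). Of 24 genes of the BCL2 family and caspases 2 were higher (background 4.33%), a count that was 1 without BL6 library 3, without SmoA1 library 2 or with DESeq2 and 3 without BL6 library 4. Among them was Casp4, the caspase that senses lipopolysaccharide, with 10.02, 17.4 and 23.5 CPM against 52.1, 69.5 and 64.6 CPM (log2 1.84 ± 0.28, edgeR adjusted p = 6.78e-05). Of 19 fibroblast and pericyte genes, 1 was higher, Dcn, the matrix proteoglycan decorin (log2 0.84). The 25 hypoxia genes gave 2 calls and the 3 tested erythrocyte genes 1, all lost when single libraries were left out. None of 5 tested sex-linked genes was called by edgeR or DESeq2, and 0 passed at an unadjusted p under 0.05, but without SmoA1 library 1, 1 was higher and 4 were lower.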

How the data were processed

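Raw read counts per gene were deposited by the authors, 4 files for each numbered BL6 or SmoA1 sample, in a layout with reads on either strand and on each strand listed per gene. The submitters' processing notes name mm10 and Cell Ranger 5.0.1, with the aligner not given in the sources used here. The 4 files varied no more than draws from 1 library (variance to mean ratio 0.858 to 0.938 over genes with at least 40 counts) and were summed. The column for reads on either strand was used without its 4 summary rows. GENCODE M21 on GRCm38 matched 53274 of 53379 identifiers, and promoters came from RefSeq (GRCm38.p6).

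Genes were filtered with filterByExpr, scaled with TMM and tested with the quasi-likelihood test of edgeR 4.0.16 in R 4.3.3, at a Benjamini-Hochberg adjusted p under 0.05 over all genes tested. Tumour and normal were compared after 1 Gy and in sham (6 libraries each), and the difference of the 2 differences in 1 fit of 12 libraries. Values in CPM come from that common scale. A fold against a group with no count used a floor of 3 counts over the group, and 1 to 3 counts gave a 95% exact counting interval. The fits were tested on simulated data. The members and the 26 gene lists (694 genes, 691 matched) were chosen with earlier results of these data known. Genes named are Smo, Ptch1 and Gli1, up to 5 called members per list and direction (or 2 by mean CPM where none was called), the 10 largest folds per direction among persisting genes and among genes called after 1 Gy alone (mean of at least 5 CPM), and the 10 smallest interaction p per direction. Not every gene of these rankings is described, and some are not reported here. Alternatives were DESeq2 1.42.0, upper-quartile and RLE scaling, all genes without a filter, genes averaging 1 CPM or more, a strand column, 1 fit of 12 libraries, a replicate block, leaving out each library, other thresholds and, added after the data were seen, a covariate for Y-linked level. Figures were drawn with matplotlib 3.10.9 under Python 3.11.15.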

Additional observations from a re-analysis of the deposited data

Results flagged for a closer look

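The tumour difference after 1 Gy differed from the tumour difference in sham, by the interaction term of edgeR, in the 44 named genes below. Each value is that interaction on the log2 scale, and no explanation was tested.

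The first set had been lower in the sham tumours. Among secreted and matrix proteins the value was 2.50 for Hapln1, 3.23 for Tnn, 3.94 for Fgf10 and 1.38 for Bdnf. Among neuronal and membrane genes it was 1.33 for Gad1, 1.60 for Slc6a5, 1.41 for Chn2, 1.79 for Cdh1, 2.70 for Slc26a7, 2.91 for Slc4a1, 3.3 for Prlr and 1.39 for Ndrg1. For Vwa5b1 it was 3.52, for Ppl 2.08, for Scin 3.35, for Dnah6 1.84 and for Gm3294 3.26.

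The second set was called higher after 1 Gy, in the fit of all libraries, without being called higher in sham. The interaction was 3.14 for Igf2bp2, 4.51 for Siglecg, 3.13 for Mctp2, 3.38 for Gna14, 2.62 for Ankrd34c and 1.83 for Fosb. It was 1.75 for Fos, 1.29 for Nr4a3, 1.34 for Birc3, 1.46 for Steap4, 1.34 for Slc15a3 and 1.28 for Crispld2. It was 1.22 for Cd44, 1.19 for Lcp1, 0.96 for Gsap and 0.82 for Csmd1. The call after 1 Gy itself was lost without some libraries for Fosb (adjusted p of up to 0.202), Fos (4 libraries, up to 0.217), Ankrd34c (3, up to 0.128), Gsap (3, up to 0.148), Csmd1 (2, up to 0.0669) and Nr4a3 (1, 0.0951).

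The third set had been higher in the sham tumours. Its interaction was -1.70 for Eda2r, -1.19 for Prr12, -1.85 for Dcdc5, -4.26 for Gm43187, -2.08 for Gm38340 and -1.17 for Nfxl1. It was -1.19 for Mki67, -2.23 for Hmmr, -1.10 for Mcm2, -1.34 for Chaf1a and -1.86 for Gpr27. Of all 44 genes, 16 kept the call in each of the 12 fits that left out a library, namely Gm3294, Slc26a7, Vwa5b1, Ppl, Scin, Dnah6, Hapln1, Tnn, Fgf10, Eda2r, Prr12, Igf2bp2, Gad1, Slc6a5, Cdh1 and Slc4a1.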

How the results depend on the processing

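The 1175 genes called after 1 Gy became 702 with DESeq2, 2235 without the low-count filter, 1958 at a mean of at least 1 CPM, 612 with 1 strand column and 695 at an adjusted p under 0.01. The 2705 called in sham became 1727, 4422, 4162, 1447 and 1732 under the same settings, and 1555 at a log2 difference of at least 1. The 648 called in the same direction in both became 371, 1255, 1106, 342 and 370. The 193 interaction calls became 101 with DESeq2, 449 without the filter, 79 with 1 strand column and 56 at an adjusted p under 0.01. The strand column holds nearly only genes of the plus strand, so that fewer genes were tested. For the other settings the cause was not tested. Leaving out 1 library gave 848 to 1267 calls after 1 Gy, 2144 to 2856 in sham, 437 to 668 in both and 83 to 291 for the interaction. The interaction count was 291 without SmoA1 1 Gy library 3, 126 and 86 without SmoA1 1 Gy libraries 1 and 2, 88 without BL6 1 Gy library 4, and 83, 100 and 112 without BL6 sham libraries 1, 2 and 3. With the replicate number as a block the counts were 1256 after 1 Gy, 1960 in sham, 641 in both and 70 for the interaction, and the log2 difference of Ptch1 after 1 Gy turned to 0.12. That of Gli1 was 0.72 with the block and was called (adjusted p = 0.0423). Samples of a setting share only 2 numbers, which mark no known pairing. Leaving out 1 library gave -0.18 to 0.09 for Ptch1, the latter without SmoA1 1 Gy library 1. With the Y-linked level as a covariate, added after the data were seen, the counts were 870, 2554, 487 and 139. Of 128 named genes after 1 Gy, 30 lost their call with DESeq2, 19 with the block and 17 with the Y-linked covariate. Not all of these are listed here, and some of those listed are not described above. Fosb, Gad2, Prr12, Ckap2, Etv1, Tmem119, Epb42, Apaf1 and Kit lost it under all 3. Psrc1, Nhlh2, Lyz2, Angptl4, Hk2 and Ankrd34c lost it with DESeq2 and the covariate, Atoh1, Fos and Gsap with DESeq2 and the block, Dnah9, Dcn and Mctp2 with DESeq2, Tspan2 and Csmd1 with the block, and Sfrp1 and Tgfbi with the covariate. Of 44 named interaction genes, 23, 25 and 18 lost theirs. Under all 3 these were Gm43187, Hmmr, Gpr27, Mcm2, Siglecg, Csmd1, Crispld2, Lcp1, Ankrd34c, Slc15a3, Chaf1a and Ndrg1. Birc3, Fosb, Cd44, Nfxl1, Steap4, Mctp2 and Fos lost it with DESeq2 and the block, Gm38340, Gna14, Bdnf and Prlr with DESeq2 and the covariate, Nr4a3 and Mki67 with the block and the covariate, and Prr12, Gsap, Igf2bp2 and Chn2 with the block. Depth limits the low genes, for which a few counts a library set the fold.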
